A study of Arabidopsis thaliana with 6 samples.

Results

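The 10 genes described here are imprinted in the endosperm of *Arabidopsis thaliana* and belong neither to the MADS-box family nor to the Polycomb complex. They were chosen by name from the 37336 genes of the deposited table, and all 10 were found. Imprinted genes are expressed mainly from the allele that came from one parent. Of these, 6 are known as maternally expressed (FWA, HDG8, HDG9, FH5, MPC and SDC) and 4 as paternally expressed (HDG3, ADM, SUVH7 and VIM5). These classes are background knowledge, since the libraries hold no allele counts.

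The mutant libraries came from self-pollinated siliques of *eml1-2 eml3-4* double mutants (3 libraries) and the controls from self-pollinated siliques of the wild type, WT (3 libraries), all collected 1 to 5 days after pollination. Polyadenylated RNA was sequenced. EML proteins read histone marks, and the study asked about their part in keeping seeds from forming where fertilization has not occurred. The accession of either genotype and any pooling of plants are not stated. Nor is it stated whether each library is a separate set of plants, and the spread behind each p-value may therefore be technical. Siliques hold fruit wall, seed coat, endosperm and embryo, so fewer cells of a type and less RNA per cell cannot be told apart.

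In endosperm, imprinting is set up before fertilization. The DNA glycosylase DEMETER removes methylation in the central cell, which frees the maternal alleles of genes such as FWA, and Polycomb marks on demethylated maternal alleles leave many paternally expressed genes to the paternal copy. The dosage of several of these genes is known to affect when the endosperm forms cell walls and how well seeds with extra paternal genomes survive.

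Recovered depth was 26771227 to 39246167 reads per library. EML3, one of the mutated genes, averaged 187 ± 12.6 normalized reads in the mutant, against 2367 ± 310 in WT (SD, n = 3 each). EML1 averaged 1144 ± 83.7 in the mutant, against 1281 ± 88.0 in WT (SD, n = 3 each), which leaves the *eml1-2* allele unchecked, since the deposited value covers all of EML1. Over all genes, limma called 1476 of 21751, or 6.79%, at an adjusted p under 0.05, 802 higher and 674 lower in the mutant; after rescaling to one total the split was 615 higher and 863 lower. Replicate 3 of the mutant stood apart. On the log2 scale the correlation across genes between mutant replicates 1 and 2 was 0.979, whereas replicate 3 reached 0.930 with replicate 1 and 0.931 with replicate 2. Each result that rests on it is given with and without it.

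All 10 genes passed the filter on low values (a mean of at least 10 normalized reads), and limma called 0 of them with all 6 libraries, against 6.79% of all tested genes. At an unadjusted p under 0.05 there were 3, HDG9, HDG3 and ADM, against 4684 of the 21751 tested genes. With edgeR and its filter on low counts 0 of the 10 were called (6.49% of all genes), and without that filter 1, HDG3 (6.72% of all genes). DESeq2 called 1, HDG9 (9.68% of all genes). When mutant replicate 3 was left out, limma called 1 of the 10, HDG3, where 12.1% of all tested genes were called, and edgeR likewise called HDG3, where 11.8% were called. The median log2 change was -0.03 for the 6 maternally expressed genes and -0.07 for the 4 paternally expressed genes, beside 0.00320 for all tested genes, and each class held as many positive as negative changes.

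**Figure D1:**
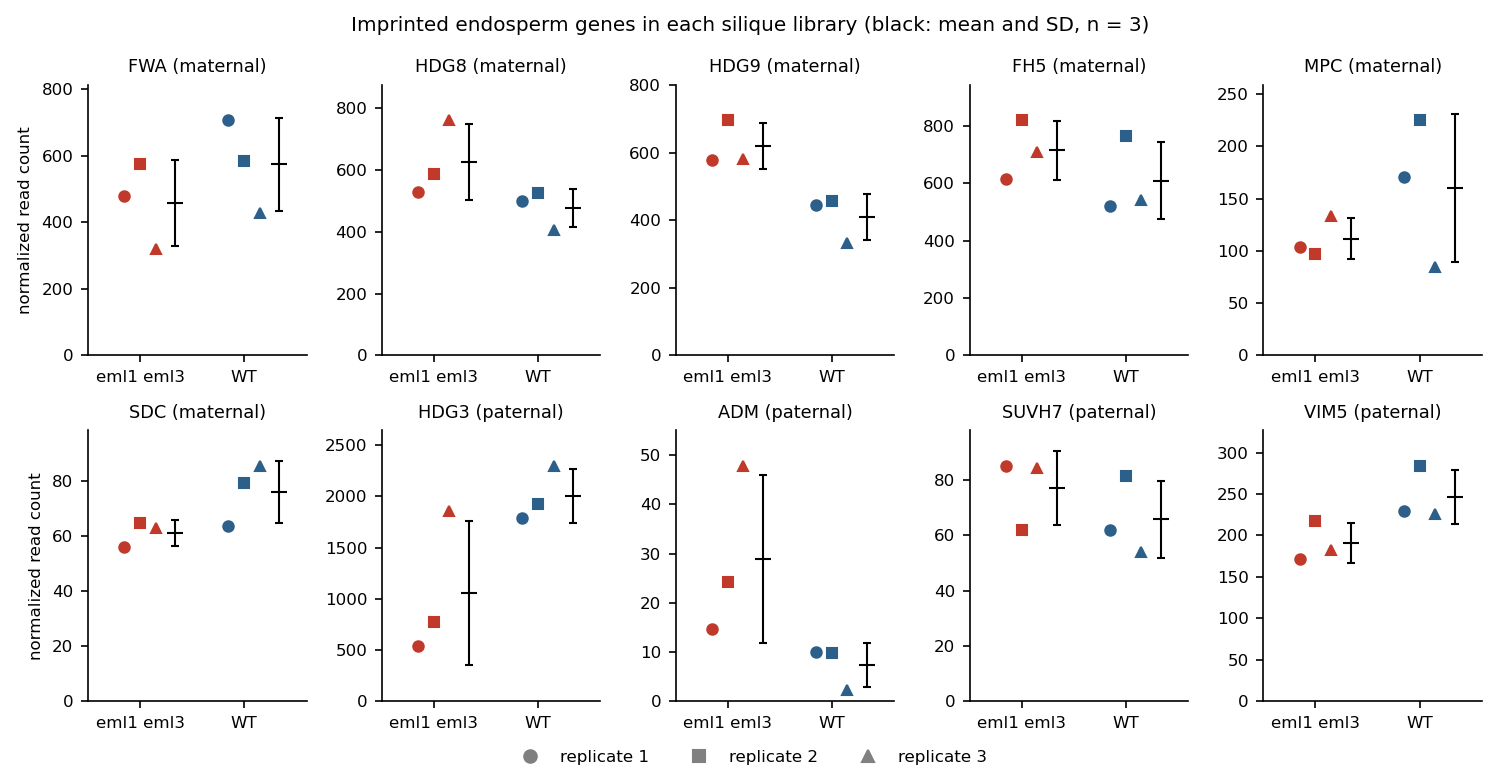
Normalized read count (y axis) of each of the 10 genes in the 3 *eml1 eml3* and 3 WT libraries, with symbols for replicates and black bars for mean and SD. HDG9 lies between 579 and 698 in the mutant libraries and between 333 and 456 in the WT libraries, and HDG3 is at 543 and 771 in mutant replicates 1 and 2 but at 1853 in mutant replicate 3.

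The levels of the genes were compared per kilobase of the longest transcript in the TAIR10.1 reference. In the mutant libraries HDG3 averaged 369 ± 245 normalized reads per kb, HDG9 258 ± 28.3, HDG8 247 ± 48.3, FH5 204 ± 29.3, MPC 198 ± 34.4 and FWA 186 ± 52.1 (SD, n = 3 each). In WT HDG3 led the order at 700 ± 92.7 normalized reads per kb and did not overlap the next, MPC, at 285 ± 126 (SD, n = 3 each). FWA at 233 ± 56.6, HDG8 at 188 ± 24.7, FH5 at 174 ± 38.6 and HDG9 at 171 ± 28.5 followed in WT per kb, and the ranges of neighbours from MPC to HDG9 overlapped. VIM5 stood lower, at 89.9 ± 11.4 per kb in the mutant and 116 ± 15.4 in WT (SD, n = 3 each). SDC, SUVH7 and ADM were lowest, at 37.7, 37.0 and 36.4 per kb in the mutant and at 46.9, 31.6 and 9.27 per kb in WT.

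Among the maternally expressed genes, HDG9 (AT5G17320), a homeodomain gene of the HD-ZIP IV family, was the one with the smallest p. Its normalized count was 579, 698 and 582 in mutant replicates 1, 2 and 3, against 444, 456 and 333 in WT replicates 1, 2 and 3. Every mutant library was above every WT library. The log2 change was 0.60 ± 0.18 (SE, n = 3 each), a 1.51-fold difference with a 95% interval of 0.20 to 1.00 on the log2 scale, which did not pass (limma adjusted p = 0.0781). Without mutant replicate 3 it was 0.64 ± 0.20 (limma adjusted p = 0.0614). The authors' deposited table gives HDG9 a log2 change of 0.59 and an adjusted p of 0.0486, where 9.65% of the genes with an adjusted p are under 0.05, and 5.13% are under it and higher in the mutant. HDG9 was thus on either side of the threshold depending on the tool.

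HDG8 (AT3G03260), another HD-ZIP IV gene, stood at 527, 586 and 762 normalized reads in mutant replicates 1, 2 and 3, against 500, 524 and 406 in WT replicates 1, 2 and 3. The groups did not overlap, but the lowest mutant and highest WT libraries were 527 and 524. The log2 change was 0.38 ± 0.19 (SE, n = 3 each; limma adjusted p = 0.271), and 0.23 ± 0.18 without mutant replicate 3 (limma adjusted p = 0.463).

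FWA (AT4G25530), the third maternally expressed HD-ZIP IV gene, is silenced by DNA methylation in vegetative tissue and delays flowering when that methylation is lost. It stood at 478, 576 and 321 normalized reads in mutant replicates 1, 2 and 3, against 709, 585 and 430 in WT replicates 1, 2 and 3. The groups overlapped, and in both genotypes replicate 3 was the lowest library. The log2 change was -0.34 ± 0.25 (SE, n = 3 each; limma adjusted p = 0.487), and -0.10 ± 0.22 without mutant replicate 3 (limma adjusted p = 0.825).

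FH5 (AT5G54650) encodes a formin, a protein that nucleates actin filaments, and acts where the endosperm forms cell walls. It stood at 616, 821 and 709 normalized reads in mutant replicates 1, 2 and 3, against 521, 765 and 542 in WT replicates 1, 2 and 3. The groups overlapped, with replicate 2 highest in both, and the log2 change of 0.24 had a 95% interval of -0.17 to 0.66 (limma adjusted p = 0.506).

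MPC (AT3G19350), which resembles the C-terminal domain of poly(A)-binding proteins, stood at 104, 97.2 and 134 normalized reads in mutant replicates 1, 2 and 3, against 170, 225 and 84.6 in WT replicates 1, 2 and 3. WT replicate 3 was below every mutant library, and the WT spread was 44.3% of its mean. The log2 change of -0.42 had a 95% interval of -1.24 to 0.41 (limma adjusted p = 0.568). SDC (AT2G17690), an F-box gene kept silent in vegetative tissue by non-CG methylation, stood at 56.0, 64.8 and 63.0 in mutant replicates 1, 2 and 3, against 63.7, 79.3 and 85.7 in WT replicates 1, 2 and 3. One mutant library was above the lowest WT library, and the change did not pass (log2 change -0.30, limma adjusted p = 0.670). Over 1303 bases of gene span, any introns included, SDC overlaps AT2G17695 on the opposite strand in the reference. That gene had 1206 ± 23.7 normalized reads in the mutant, against 1378 ± 363 in WT (SD, n = 3 each), so without a stated strand setting the SDC values are uncertain.

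Among the paternally expressed genes, HDG3 (AT2G32370) is the HD-ZIP IV gene that promotes endosperm cell wall formation and seed growth. Its normalized count was 543, 771 and 1853 in mutant replicates 1, 2 and 3, against 1787, 1926 and 2300 in WT replicates 1, 2 and 3. Mutant replicates 1 and 2 were below every WT library, and mutant replicate 3 lay within the WT range. With all libraries the log2 change was -1.12 ± 0.35 (SE, n = 3 each), with a 95% interval of -1.89 to -0.34, and did not pass (limma adjusted p = 0.0891). Without mutant replicate 3 HDG3 fell by 1.62 ± 0.18 on the log2 scale, 3.08-fold, with 2 mutant and 3 WT libraries (limma adjusted p = 0.000291; edgeR adjusted p = 0.000317). In that comparison 6.73% of all tested genes were called lower. The order seen in HDG3, mutant replicates 1 and 2 below every WT library and mutant replicate 3 inside the WT range, was found in 1212 of 21751 tested genes, or 5.57%, a count made after its values were seen.

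**Figure D2:**
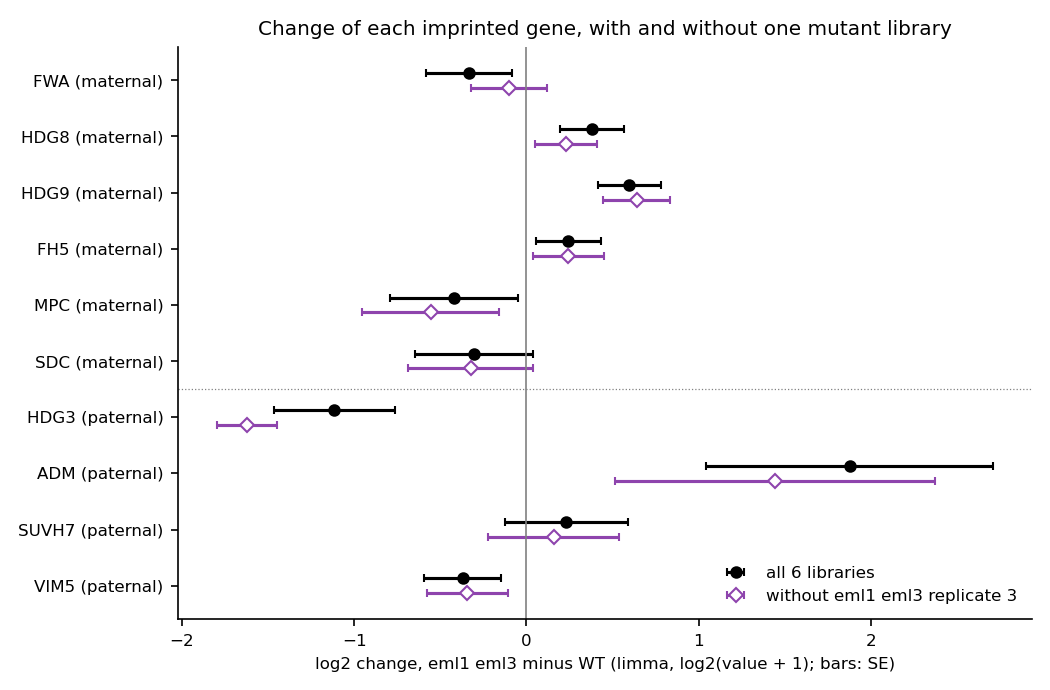
Log2 change of each gene, *eml1 eml3* minus WT (x axis), with bars for the SE; filled circles use all 6 libraries and open diamonds leave out mutant replicate 3. HDG3 moves to -1.62 from -1.12 when that library is left out, and HDG9 stays near 0.6.

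ADM (AT4G11940), a DnaJ-domain gene whose loss lets seeds with extra paternal genomes survive, had few reads. It stood at 14.6, 24.3 and 47.9 normalized reads in mutant replicates 1, 2 and 3, against 10.06, 9.80 and 2.25 in WT replicates 1, 2 and 3. These rest on 18, 24 and 38 reads in the mutant libraries and on 12, 10 and 2 reads in the WT libraries. The groups did not overlap, but the exact Poisson 95% intervals of mutant replicate 1, 10.7 to 28.4 reads, and WT replicate 1, 6.20 to 21.0 reads, did. The log2 change was 1.88 ± 0.83 (SE, n = 3 each; limma adjusted p = 0.224), and 1.45 ± 0.93 without mutant replicate 3 (limma adjusted p = 0.369).

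VIM5 (AT1G57800), of a family of RING-finger proteins that bind methylated DNA, stood at 171, 218 and 183 normalized reads in mutant replicates 1, 2 and 3, against 230, 284 and 225 in WT replicates 1, 2 and 3. Every mutant library was below every WT library, by at least the gap between 218 and 225. The log2 change of -0.37 had a 95% interval of -0.86 to 0.13 and did not pass (limma adjusted p = 0.380). SUVH7 (AT1G17770), related to histone H3 lysine methyltransferases, stood at 85.2, 61.8 and 84.4 in mutant replicates 1, 2 and 3, against 62.0, 81.3 and 54.1 in WT replicates 1, 2 and 3. Its groups overlapped (log2 change 0.23, limma adjusted p = 0.765).

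Counted together, 4 of the 10 genes had groups that did not overlap, HDG8, HDG9 and ADM with the mutant above and VIM5 with the mutant below. Over all tested genes this share was 26.9%, with 14.0% above and 12.8% below. In the reference none of the 10 genes had a near-identical copy (at least 95% identity over 150 bases). HDG9 came closest to HDG10, at 81.3% over 2146 bases, and SUVH7 to SUVH8, at 80.3% over 1746 bases. The highest identity was that of VIM5 to AT4G08590, at 90.5% over 158 bases.

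The imprinted HD-ZIP IV genes were compared by ratios within a library, chosen after the values were seen and given without a test. HDG9 over HDG3 was 1.07, 0.905 and 0.314 in mutant replicates 1, 2 and 3, against 0.249, 0.237 and 0.145 in WT replicates 1, 2 and 3. All mutant libraries were above all WT libraries, with mutant replicate 3 nearest to WT. HDG8 over HDG3 was 0.972, 0.761 and 0.411 in mutant replicates 1, 2 and 3, against 0.280, 0.272 and 0.176 in WT replicates 1, 2 and 3, again without overlap. For FWA the ratio to HDG3 overlapped, at 0.880, 0.748 and 0.173 in the mutant libraries and 0.397, 0.304 and 0.187 in the WT libraries. HDG9 over FWA, both maternally expressed, was 1.21, 1.21 and 1.81 in the mutant libraries, against 0.627, 0.781 and 0.774 in the WT libraries. HDG8 over FWA was 1.10, 1.02 and 2.37 in the mutant libraries, against 0.705, 0.896 and 0.945 in the WT libraries. Neither overlapped, and mutant replicate 3 was farthest from WT in both. HDG9 over HDG8 overlapped. These ratios show unequal change between the genes of a pair, within a class as well as between classes.

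**Figure D3:**
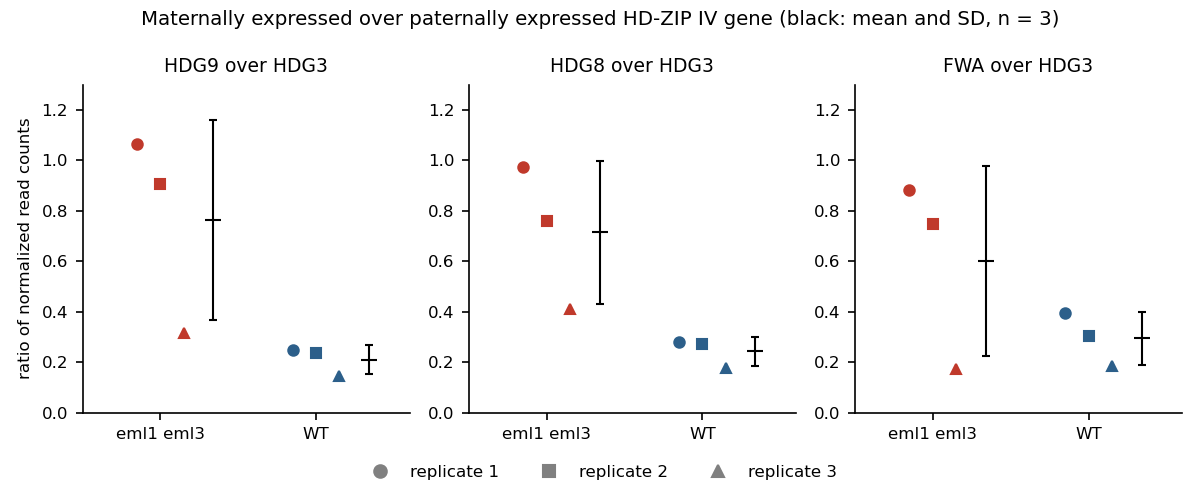
Ratio of normalized read counts (y axis) of HDG9, HDG8 and FWA to HDG3 in each *eml1 eml3* and WT library, with black bars for mean and SD. For HDG9 the mutant ratios run from 0.314 to 1.07 and the WT ratios from 0.145 to 0.249, while those of FWA overlap.

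Summed over the 6 maternally expressed genes, the libraries held 2360, 2844 and 2572 normalized reads in mutant replicates 1, 2 and 3, against 2407, 2635 and 1880 in WT replicates 1, 2 and 3. The 4 paternally expressed genes summed to 814, 1075 and 2168 in mutant replicates 1, 2 and 3, against 2089, 2301 and 2582 in WT replicates 1, 2 and 3. The maternal sums overlapped between genotypes. The paternal sums of mutant replicates 1 and 2 lay below the lowest WT library, and HDG3 supplied most of the paternal sum in every library. Of the other paternally expressed genes, VIM5 was below and ADM above WT in every mutant library, and SUVH7 overlapped. HDG3 alone made up 17.1%, 19.7% and 39.1% of the total of all 10 genes in mutant replicates 1, 2 and 3, against 39.7%, 39.0% and 51.5% in WT replicates 1, 2 and 3.

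Several markers of the embryo were, like HDG3, low in mutant replicates 1 and 2 and higher in mutant replicate 3. They resembled HDG3 to differing degrees. The order of HDG3 was also that of FUS3, at 26.0, 36.5 and 199 in mutant replicates 1, 2 and 3. In WT replicates 1, 2 and 3 FUS3 stood at 151, 203 and 64.3. In mutant replicate 3 ABI3 stood at 606, against 123 to 238 in WT, and L1L at 358, against 83.4 to 200 in WT. There HDG3 lay within its WT range. From WT replicate 1 to 3 HDG3 and the embryo gene WOX9 rose, while L1L fell, at 200, 159 and 83.4. The embryo and seed maturation regulator LEC1 stood at 113, 148 and 421 normalized reads in mutant replicates 1, 2 and 3, against 572, 509 and 515 in WT replicates 1, 2 and 3. Of 7 embryo markers, 5 had mutant replicates 1 and 2 below the lowest WT library, an order found in 4772 of the 21751 tested genes, or 21.9%. Of the 7, 6 had their highest mutant value in replicate 3, an order that was not counted over all tested genes. Their summed level was 731, 850 and 2392 in mutant replicates 1, 2 and 3, against 1430 to 1656 in WT. Leaving out mutant replicate 3, limma called 4 of 6 tested embryo markers lower, LEC1, FUS3, ABI3 and L1L, where it called 6.73% of all tested genes lower. With all libraries limma called 0 of 7, DESeq2 called 1, LEC1, and 1 had an unadjusted p under 0.05. All 8 seed storage genes were highest in mutant replicate 3, an order likewise not counted over all tested genes. In that library they summed to 50267, against 305 and 287 in mutant replicates 1 and 2 and 266 to 632 in WT. Limma called 0 of these 8 (1 at an unadjusted p under 0.05), DESeq2 1 and edgeR without a filter 6. Of all tested genes DESeq2 called 9.68% and edgeR without a filter 6.72%. OLEO4, an oil-body protein, stood at 246, 224 and 687 in mutant replicates 1, 2 and 3, against 190, 175 and 194 in WT replicates 1, 2 and 3, and the storage globulin CRU2 at 8.11, 2.03 and 4672 in the mutant libraries, against 5.03, 7.84 and 0 in the WT libraries. The embryo gene WOX9 stood at 497, 594 and 583 in mutant replicates 1, 2 and 3, against 319, 416 and 574 in WT replicates 1, 2 and 3. The part of these markers in the HDG3 values was not tested.

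The 8 endosperm markers summed to 2625 to 2807 normalized reads in the mutant and 2809 to 3294 in WT, most of it SUC5, a sucrose carrier, at 1763 ± 157 in the mutant and 2036 ± 151 in WT (SD, n = 3 each). Limma called 0 of 7 tested endosperm markers, with 0 at an unadjusted p under 0.05, and edgeR and DESeq2 called 0. With mutant replicate 3 left out limma called 1 of 7, ZOU, lower, where it called 6.73% of all tested genes lower. ZOU, which controls endosperm breakdown, stood at 79.5, 46.6 and 276 in mutant replicates 1, 2 and 3, against 138 to 200 in WT. With all libraries ZOU did not pass (limma adjusted p = 0.493). In the fit without mutant replicate 3, 4 of the 7 markers had a negative change and 3 a positive one. EDE1, among the positive, stood at 274, 284 and 134 in mutant replicates 1, 2 and 3, against 161 to 193 in WT. Its limma adjusted p was 0.0889 without mutant replicate 3 and 0.628 with all libraries. Of 6 seed coat markers 0 were called in limma, edgeR or DESeq2 (1 at an unadjusted p under 0.05 in limma), TT2 and TT10 having the smallest p (limma adjusted p = 0.186 and 0.470), and the sum of the 6 was 18543 to 20165 in the mutant and 18021 to 23499 in WT. TT10, a laccase of seed coat browning, was called lower without mutant replicate 3, where 6.73% of all tested genes were called lower. Fruit wall markers summed to 5593 to 6056 in the mutant and 5988 to 6716 in WT. Of 5, 1 fell, SHP1, which overlaps genes on the opposite strand (log2 change -0.53, limma adjusted p = 0.0273), beside 3.1% of all tested genes. That call was lost without any one library except mutant replicate 3. Pollen markers summed to 7253 to 11610 in the mutant, most of it SUC1, and to 7122 to 14825 in WT. Of 3 tested, limma called 1, SUC1, higher and 1, PPME1, which has a near-identical copy, lower. These calls stand beside 3.69% and 3.1% of all tested genes. VGD1 stood at 2925, 1785 and 1712 in mutant replicates 1, 2 and 3, against 3060, 3257 and 7873 in WT replicates 1, 2 and 3. Its groups did not overlap, with the mutant below as in 12.8% of all tested genes (limma adjusted p = 0.0890). The SUC1 call was lost when replicate 1 or 2 of either genotype was left out, and the PPME1 call without mutant replicate 2 and with a robust variance prior. No marker in these lists was at 0 in all 6 libraries.

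**Figure D4:**
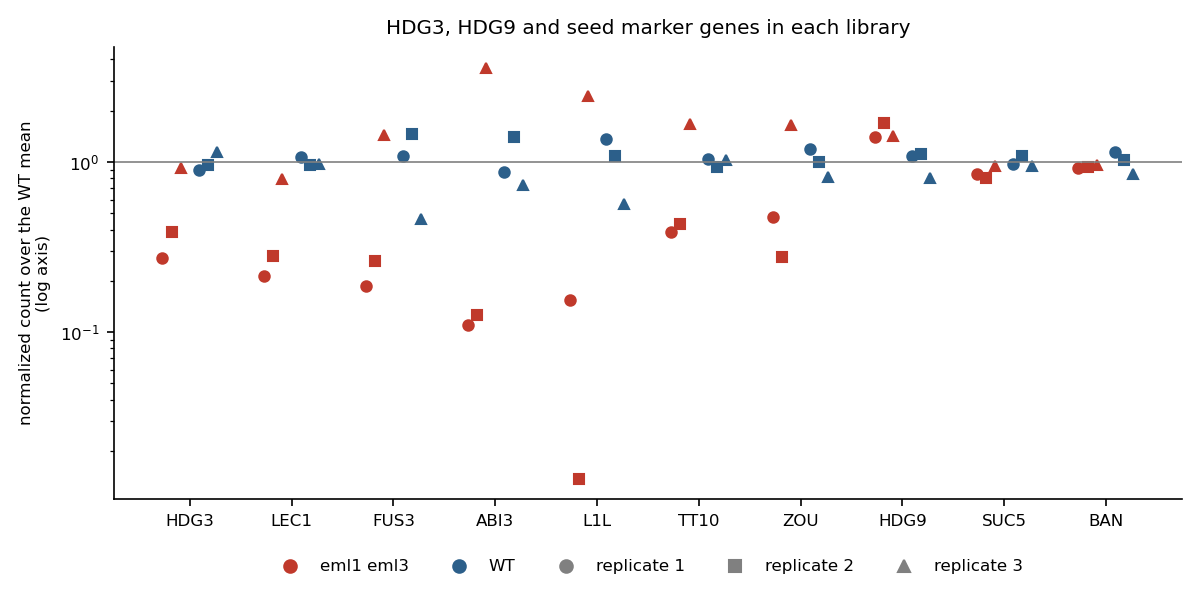
Normalized count over the WT mean (y axis, log scale) of HDG3, HDG9 and 8 seed marker genes in each library, *eml1 eml3* in red and WT in blue. HDG3, LEC1, FUS3, ABI3, L1L, TT10 and ZOU are low in mutant replicates 1 and 2 and higher in mutant replicate 3, whereas HDG9 runs from 579 to 698 and BAN from 12042 to 12414 over the mutant libraries. The 8 markers are a choice from longer lists. Among the listed markers not shown, EDE1, MINI3 and TT2 were lower in mutant replicate 3 than in mutant replicates 1 and 2.

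The nearest patterns to the gene with the highest mean normalized count in each class, HDG3 and FH5, were sought among 8193 tested genes with a symbol and a mean of at least 50. That choice was not corrected for length: per kb FH5, at 189 over all 6 libraries, lay below MPC at 242, HDG8 at 218, HDG9 at 215 and FWA at 209. Over the 6 libraries, the log2 values most like those of HDG3 were those of PUM13 (AT5G43090, Pearson r = 0.993), CYP71B12 (AT5G25130, r = 0.991) and PUP6 (AT4G18190, r = 0.989). PUM13, a member of the Pumilio family of RNA-binding proteins, stood at 17.9, 28.4 and 65.5 normalized reads in mutant replicates 1, 2 and 3, against 58.7, 71.5 and 72.2 in WT replicates 1, 2 and 3. Those most like FH5 were Nek7 (AT3G12200, r = 0.987), CMPG2 (AT5G64660, r = 0.981) and BGLU5 (AT1G60260, r = 0.979). These are descriptions of 6 libraries that share 2 genotypes, picked as the highest of many.

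Other imprinted genes were taken from a list of 17, of which 15 were tested. Limma called 1, against 6.79% of all tested genes, and the median log2 change was -0.28, or -0.04 without mutant replicate 3. ALN (AT4G04955), allantoinase, whose maternal allele is favoured in endosperm, fell to 873 ± 38.2 normalized reads in the mutant, against 1326 ± 123 in WT (SD, n = 3 each; limma adjusted p = 0.0211), a call lost without any one library except mutant replicate 3. MYB3R2 (AT4G00540), a paternally expressed MYB gene, stood at 15.4, 8.10 and 40.3 in mutant replicates 1, 2 and 3, against 77.1, 49.0 and 69.9 in WT replicates 1, 2 and 3, and passed only without mutant replicate 3 (limma adjusted p = 0.0155, and 0.108 with all libraries). In that fit limma called 2 of 14 tested, where 12.1% of all tested genes were called. The mutant libraries of MYB3R2 were all below its WT libraries, with mutant replicate 3 the nearest to WT. Of the 17 listed genes, 7 had their highest mutant value in replicate 3, an order that was not counted over all tested genes. In 5 of the 17 mutant replicates 1 and 2 were below every WT library, an order found in 21.9% of all tested genes.

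The HD-ZIP IV family, which specifies epidermal cells, has 12 further genes in the list, of which 10 were tested and 0 were called by limma, edgeR with its filter or DESeq2, with 2 at an unadjusted p under 0.05. GL2 (AT1G79840), needed for seed coat mucilage and overlapping other genes in the reference, stood at 2153 ± 548 in the mutant, against 3062 ± 347 in WT, and HDG1 at 1273 ± 178 in the mutant, against 931 ± 139 in WT (SD, n = 3 each; limma adjusted p = 0.0940 and 0.126). Leaving out mutant replicate 3, limma called GL2 lower (adjusted p = 0.00475) and HDG1 higher (adjusted p = 0.0389). These were 2 of 11 tested in that fit, where 12.1% of all tested genes were called. GL2 was also called lower after rescaling to one total. HDG10, the closest relative of HDG9, stood at 131, 162 and 58.0 in mutant replicates 1, 2 and 3, against 52.0, 90.1 and 38.3 in WT replicates 1, 2 and 3, with overlap.

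Of 15 other formin genes 2 rose and 1 fell, beside 3.69% and 3.1% of all tested genes, with a median log2 change of 0.25. FH3 (AT4G15200), an actin-nucleating formin known from pollen, fell to 1436 ± 356 in the mutant, against 2883 ± 327 in WT (SD, n = 3 each; limma adjusted p = 0.00749), and was called in each of the 21 fits run, this one included. AT3G07540, annotated as a formin homology 2 family gene, rose to 3537 ± 172 in the mutant, against 1788 ± 587 in WT (SD, n = 3 each; limma adjusted p = 0.0187), a call lost without mutant replicate 1 or 2. AT5G07770, annotated as an actin-binding FH2 protein, rose to 593 ± 122 in the mutant, against 309 ± 91.0 in WT (SD, n = 3 each; limma adjusted p = 0.0389), a call lost without any one library except WT replicate 3.

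Of 8 tested SUVH genes 0 were called in limma, with 1 at an unadjusted p under 0.05. SUVH1 (AT5G04940), a reader of DNA methylation, stood at 804 ± 21.5 in the mutant, against 562 ± 40.7 in WT (SD, n = 3 each; limma adjusted p = 0.0519), without overlap. It was called higher by edgeR with its filter, by DESeq2 and by limma without mutant replicate 3 (adjusted p = 0.0448). These fits called 6.49%, 9.68% and 12.1% of all tested genes. SUVH3 stood at 584 ± 78.2 in the mutant, against 451 ± 37.4 in WT (SD, n = 3 each). Of 5 other VIM genes 0 were called in limma, edgeR or DESeq2, with 0 at an unadjusted p under 0.05; VIM3 stood at 562 ± 195 in the mutant, against 748 ± 110 in WT (SD, n = 3 each), and VIM4, at 19.9 in the mutant and 40.5 in WT, has a near-identical copy in VIM2.

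Genes that set or read imprints numbered 15, all tested, and limma called 1, beside 6.79% of all tested genes. ROS1 (AT2G36490), a DNA demethylase related to DEMETER, fell to 1362, 1673 and 1667 normalized reads in mutant replicates 1, 2 and 3, against 2010, 3189 and 2855 in WT replicates 1, 2 and 3 (log2 change -0.76 ± 0.17, SE, n = 3 each; limma adjusted p = 0.0285). Its groups did not overlap, as in 26.9% of all tested genes. The call was lost without mutant replicate 1, mutant replicate 2, WT replicate 2 or WT replicate 3. The other 14 genes did not pass in limma. Among them DME, which encodes DEMETER, stood at 1443, 1999 and 1945 in mutant replicates 1, 2 and 3, against 1720, 2329 and 2471 in WT replicates 1, 2 and 3. MET1, which maintains CG methylation, stood at 1552, 1589 and 1634 in the mutant libraries, against 1275, 1523 and 1667 in the WT libraries; both were chosen after their values were seen.

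**Figure D5:**
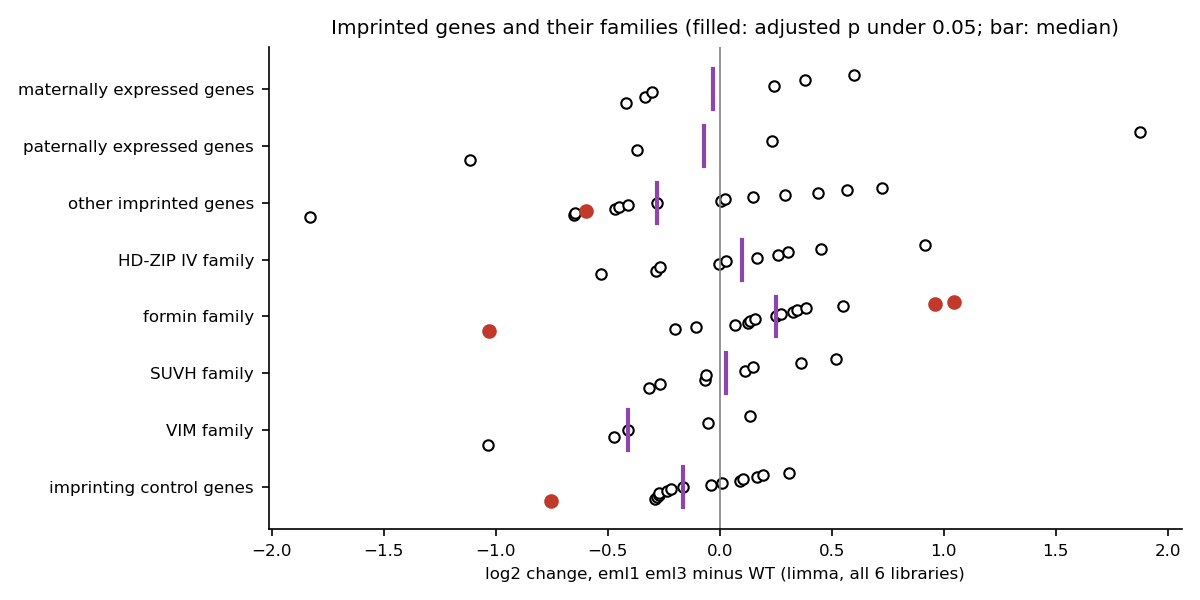
Log2 change, *eml1 eml3* minus WT (x axis), of each tested gene in the imprinted groups, their gene families and the imprinting control genes; filled points passed an adjusted p under 0.05 in limma and bars mark medians. ALN, 3 formins and ROS1 are the filled points, and none of the 10 imprinted genes is filled.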

How the data were processed

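Library values are the signal that the authors' DESeq2 step left, read counts over a size factor for each library, per the file headers. The submitters' processing notes also name Trim Galore, STAR 2.5.2a, SAMtools, featureCounts and Subread. The build, annotation, strand setting and multi-mapping rule of the counting are not known here, and no coordinates are printed. Every value (100%, tolerance 1e-06) was a whole multiple of 1 read's worth, which gave back the reads. Of counts from 1 to 20, 69.3% to 73.9% were even, so reads may not be independent. Poisson intervals cover counting error only, and they treat reads as independent, so they may be too narrow even for that. The authors' table of log2 fold changes, p-values and a score (the Wald statistic, not used) came from DESeq2, per the file headers.

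Genes with a mean of at least 10 entered limma 3.58.1 (R 4.3.3, trend on log2(value + 1)), as mutant minus WT, two-sided, with Benjamini-Hochberg adjustment over all tested genes and a threshold of 0.05. On that scale the changes of low genes are understated. Alternatives were other pseudocounts, filters and scalings, a robust prior, a replicate block, leaving out each library, edgeR 4.0.16 and DESeq2 1.42.0, and all 3 tools were tested on simulated data. Transcript lengths, overlaps and copies (BLAST 2.17.0) came from the TAIR10.1 reference, which held 37051 of the 37336 IDs. Poisson intervals used SciPy 1.17.1. The 10 genes and the lists were chosen with earlier results of these data known. By rule each list names up to 4 called genes, or the 2 with the smallest p. HDG10, MET1, DME, MYB3R2 and markers given beyond that were picked with their values in view.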

Additional observations from a re-analysis of the deposited data

How the results depend on the processing

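No direction of the 10 genes reversed among 199 values under the alternatives, and 194 stayed on their side of the threshold. The other 5 passed it. HDG9 passed with DESeq2 (log2 change 0.59, adjusted p = 0.0484; range over its alternatives 0.0484 to 0.283), where 1 maternally expressed gene was called in place of 0. HDG3 passed in edgeR without a filter (-0.94, adjusted p = 0.0337), in limma with the replicate block (-1.12, adjusted p = 0.0412) and without mutant replicate 3 in limma (-1.62) and edgeR (-1.61, an alternative added after seeing the data), each giving 1 paternally expressed gene in place of 0; its adjusted p ran from 0.000291 to 0.348. Leaving out 1 library gave 0 to 1 paternally expressed genes. The cause was not tested. ADM has no value with a minimum mean of 50. Over all genes DESeq2 called 2365, leaving out 1 library gave 571 to 2613, and edgeR without mutant replicate 3 gave 2616, against 1476. Deviations of same-numbered libraries from their group means correlated at -0.079, -0.002 and -0.169, and no library correlated best with its own number. Recovered reads of mutant and WT were 39246167 and 38196040 in replicate 1 and 31569842 and 31503946 in replicate 2. In replicate 3 they were 26771227 and 27046107. Whether same-numbered libraries share a batch was not tested. The replicate block in limma called 1203 genes and in edgeR 1009. Of the marker genes, SUC1 was not called with the block in limma or edgeR, nor SHP1 and PPME1 with the block in edgeR. Depth limits ADM most, with 2 to 38 reads per library.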

Other observations

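The 20 tested genes on each side of a gene in the reference order were counted as a description of its surroundings. For HDG9 limma called 6 of 40, or 15.0%, 1 of them at least 16-fold apart. For HDG8 it called 5 of 40, among them the next gene, AT3G03270 (limma adjusted p = 0.000523), and for HDG3 4 of 40. It called 3 of 40 for VIM5, 2 of 40 each for MPC and SUVH7, 1 of 40 for ADM, and 0 of 40 each for FWA, FH5 and SDC. Over all tested genes 6.79% were called.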
